A study of Mus musculus with 8 samples.

Results

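The genes described here are those that write, maintain, and remove methyl groups on cytosine in DNA. They were chosen by name as the rows of the expression table for Dnmt1, Dnmt3a, Dnmt3b, Dnmt3l, Uhrf1, Tet1, Tet2, Tet3, Tdg, and Gadd45a, which are 10 of its 24354 rows. All 10 passed the filter on low values that left 13239 genes for testing. RNA sequencing covered 8 libraries of mouse cells, 2 each from embryonic stem cells (ESCs), neural stem cells (NSCs), extended pluripotent stem cells (EPSCs), and EPSC-NSC hybrid cells. The comparisons concern the levels of these genes in a somatic cell, in 2 kinds of pluripotent cells, and in hybrid cells made by fusion. Levels per gene do not separate RNA of the NSC genome from RNA of the EPSC genome in hybrid cells.

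The ESCs were the E14 line, labelled wild type, in serum medium with LIF, on mitomycin C-inactivated embryonic fibroblasts of the C3H strain. The NSCs carried the OG2 transgene, which reports Oct4 with GFP, and the ROSA26 lacZ transgene, one copy of each, and were grown in N2 medium with EGF and FGF2 on gelatin without feeder cells. The EPSCs, also labelled wild type, were line 1 at passage 15, derived from C57BL/6 8-cell embryos. They were grown in N2B27-LCDM, which holds CHIR99021, minocycline hydrochloride, dimethindene maleate, and human LIF, on inactivated fibroblasts. The hybrid cells were line 2-2 at passage 10, obtained by fusing such EPSCs with these NSCs in polyethylene glycol and selecting cells that had switched on Oct4-GFP, and were grown like the EPSCs. They were near-tetraploid in the study's own analysis. One line supplied the pair of libraries in every group, and each p-value therefore measures the spread between repeated libraries and not between derivations or fusions. Line, strain, and medium cannot be told apart where EPSCs are compared with ESCs. In every comparison with NSCs, cell type, medium, and feeder cells cannot be told apart. For hybrid cells against NSCs, ploidy and the Oct4-GFP selection are added to these. Fusion, ploidy, selection, and passage cannot be told apart where hybrid cells are compared with EPSCs.

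DNMT1 copies methylation onto the new strand after replication and is brought to hemimethylated CpG by UHRF1. DNMT3A and DNMT3B methylate DNA de novo, and DNMT3L is a catalytically inactive cofactor that stimulates them and is known from germ cells and pluripotent cells. The TET enzymes oxidize 5-methylcytosine, TDG excises the further oxidized bases so that base excision repair can restore cytosine, and GADD45A is a stress-induced protein that has been linked to active demethylation.

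Levels are given as FPKM (fragments counted on each kilobase of a transcript, for every 1000000 that were mapped). Differences were tested with limma on log2(FPKM + 1) of all 13239 genes in one fit of the 8 libraries, and each adjusted p below comes from that limma test with Benjamini-Hochberg adjustment over those genes. A log2 difference on this scale understates the change of low genes, so ratios of mean FPKM are given beside it. The threshold of the adjusted p was 0.05. With 2 libraries on each side, 0.333 is the smallest two-sided p of an exact permutation test. FPKM summed to 415240 and 415412 in the NSC libraries and to 600674 to 653796 in the other 6. The depth derived from the steps between low FPKM values was 22.0 to 32.6 per library, in units of 1000000 fragments. Scaling each library to a common sum of 1000000 moved the median log2 difference over all genes against NSCs to -0.51 for hybrid cells (0.06 before scaling), -0.48 for EPSCs (0.08 before), and -0.47 for ESCs (0.03 before), so changes against NSCs are read beside that shift where the call or the direction depends on it.

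Markers of the labelled cell types were checked first. The 10 pluripotent cell markers summed to 5237 to 5555 FPKM in ESCs, 4779 to 5157 in EPSCs, 4888 to 5420.5 in hybrid cells, and 2.92 to 3.46 in NSCs, where Pou5f1, Zfp42, Dppa5a, Tdgf1, and Fgf4 were listed at 0. The 10 neural stem cell markers summed to 4160 to 4219 in NSCs and to at most 19.4 elsewhere; the mean of Fabp7 fell from 2754 in NSCs to 0.157 in hybrid cells, that of Ptprz1 from 271.9 to 0.208, and that of Bcan from 180.8 to 0.0694. The 10 fibroblast markers, among them the collagens Col1a1, Col1a2, and Col3a1, summed to 244 to 326 in hybrid cells, 82.8 to 86.0 in EPSCs, 12.1 to 13.3 in ESCs, and 4.14 to 4.21 in NSCs, where Col1a2, Lum, and Twist2 were listed at 0. Between EPSCs and ESCs, Zfp42 was 3.87-fold lower, Klf4 2.51-fold higher, and Tfcp2l1 1.73-fold higher among pluripotent markers, with limma adjusted p of 1.9e-06, 1.6e-04, and 2.3e-05. Of the neural list, Olig2 stood at 5.99 FPKM in EPSCs and 0.0510 in ESCs, Pax6 at 0.920 and 3.84, and Slc1a3 at 6.73 and 4.19. Of the fibroblast list, Postn was 21.7-fold, Col3a1 20.8-fold, and Col1a2 8.20-fold higher in EPSCs. The paper counts Postn among its EPSC-specific genes.

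**Figure D1:**
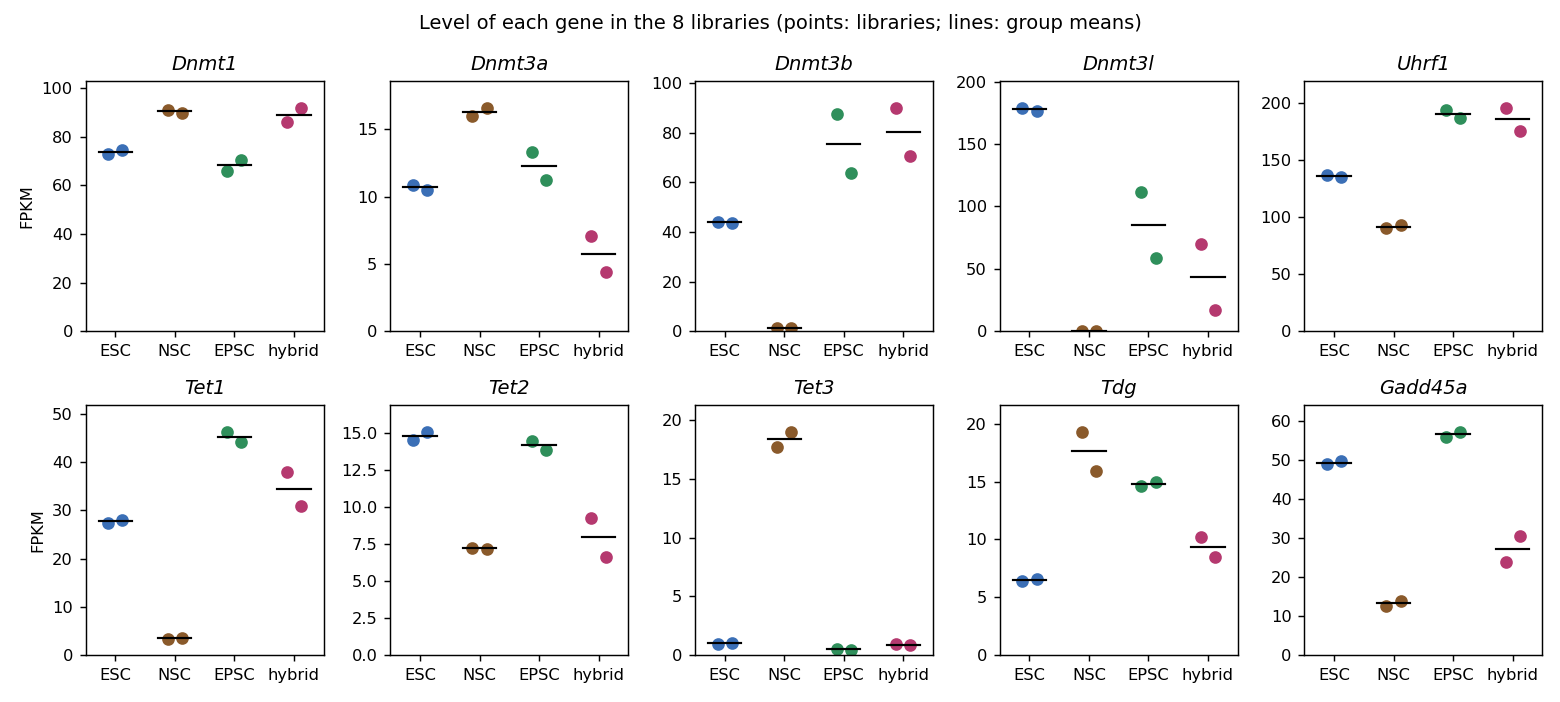
Level in FPKM (vertical axes, each from 0) of the 10 genes in each library, by group; points are libraries, library 1 to the left, and lines are the means of 2. Dnmt3b, Dnmt3l, and Tet1 are lowest and Tet3 is highest in both NSC libraries, and the 2 hybrid cell libraries of Dnmt3l lie at 69.9 and 16.8 FPKM.

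The maintenance pair differed little between groups beside the de novo genes. Dnmt1 stood at 91.2 and 89.7 FPKM in NSCs, 86.0 and 91.9 in hybrid cells, 72.9 and 74.5 in ESCs, and 66.1 and 70.3 in EPSCs. The hybrid cell libraries lay on both sides of the NSC libraries, and both groups lay above all ESC and EPSC libraries. Dnmt1 was 1.30-fold higher in hybrid cells than in EPSCs (log2 difference 0.38, SE 0.06, limma adjusted p = 0.00193) and 1.33-fold lower in EPSCs than in NSCs (limma adjusted p = 2.3e-04). Neither hybrid cells against NSCs (log2 difference -0.02, 95% interval -0.15 to 0.11, limma adjusted p = 0.698) nor EPSCs against ESCs (-0.11, -0.24 to 0.02, limma adjusted p = 0.122) passed the threshold. The comparison with NSCs depended on the scaling: the log2 difference was -0.64 after scaling to a common sum, beside the median of -0.51 over all genes, and -0.39 with quantile normalization, and both passed the threshold (limma adjusted p = 4.8e-05 and 9.5e-04). EPSCs against NSCs gave -1.02 after scaling to a common sum.

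Uhrf1 stood at 194 and 187 FPKM in EPSCs, 196 and 175 in hybrid cells, 137 and 135 in ESCs, and 90.7 and 92.7 in NSCs. EPSC and hybrid cell libraries overlapped, and every other pair of groups was apart. The mean was 2.02-fold higher in hybrid cells than in NSCs (log2 difference 1.01, SE 0.06, limma adjusted p = 1.8e-06) and 1.40-fold higher in EPSCs than in ESCs (0.48, SE 0.06, limma adjusted p = 4.3e-04). Hybrid cells and EPSCs differed by a log2 value of -0.04 (95% interval -0.18 to 0.10, limma adjusted p = 0.631). ESCs were 1.48-fold above NSCs (limma adjusted p = 5.8e-05), and the log2 difference became 0.02 (limma adjusted p = 0.798) after scaling to a common sum, where hybrid cells against NSCs gave 0.39 and EPSCs against NSCs 0.44.

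Within a library the ratio of Uhrf1 to Dnmt1 is unchanged when all genes are multiplied by one factor, which quantile normalization does not do. It was 1.01 ± 0.03 (SD, n = 2) in NSCs, 1.85 ± 0.04 in ESCs, 2.09 ± 0.26 in hybrid cells, and 2.80 ± 0.19 in EPSCs, and the libraries of the 4 groups did not overlap. Both proteins act at the replication fork, and replication genes moved too: of 13 such genes, 10 were higher and 3 lower in hybrid cells than in NSCs by limma, with a median log2 difference of 0.75 beside 0.06 over all tested genes, of which 44.5% were higher and 42.0% lower. Among them, Ccne1, a cyclin of S-phase entry, was 4.80-fold higher, Mcm3 of the replicative helicase 2.55-fold higher, and the proliferation marker Mki67 2.89-fold lower, with limma adjusted p of 3.7e-08, 1.2e-06, and 1.7e-06. In EPSCs against ESCs, 6 of the 13 were higher and 0 lower, beside 33.7% and 27.3% of all tested genes, with Top2a at 1.56-fold, Pcna at 1.51-fold, and Mcm4 at 1.37-fold. With quantile normalization the counts were 3 higher and 4 lower there, and 8 higher and 3 lower in hybrid cells against NSCs, where scaling to a common sum gave 7 higher and 3 lower with a median of 0.13 beside -0.51 over all genes. Against EPSCs, 2 of the 13 were higher in hybrid cells and 5 lower, beside 22.5% and 21.9% of all tested genes. Their part in the Uhrf1 difference was not tested.

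Of the 10 genes, Dnmt3b and Dnmt3l had the largest log2 differences from NSCs. Dnmt3b stood at 1.36 and 1.11 FPKM in NSCs, 44.2 and 43.7 in ESCs, 87.7 and 63.5 in EPSCs, and 90.0 and 70.8 in hybrid cells. Hybrid cell and EPSC libraries overlapped, all 4 lay above the ESC libraries, and the NSC libraries lay far below. The mean was 65.2-fold higher in hybrid cells than in NSCs (log2 difference 5.18, SE 0.16, limma adjusted p = 6.1e-08), 61.3-fold higher in EPSCs, and 35.6-fold higher in ESCs. These 3 comparisons share the NSC libraries. EPSCs exceeded ESCs 1.72-fold (0.75, SE 0.16, limma adjusted p = 0.00556), and hybrid cells exceeded ESCs 1.83-fold (limma adjusted p = 0.00279). Hybrid cells and EPSCs differed by a log2 value of 0.10 (95% interval -0.29 to 0.48, limma adjusted p = 0.670).

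Dnmt3l was listed at 0 in both NSC libraries. It stood at 111 and 58.8 FPKM in EPSCs, 69.9 and 16.8 in hybrid cells, and 179 and 176 in ESCs. The ESC libraries lay above all others, and the EPSC and hybrid cell libraries overlapped. The call against NSCs passed in all 3 pluripotent groups (limma adjusted p = 6.8e-05 for hybrid cells, 1.9e-05 for EPSCs, and 7.8e-06 for ESCs), and no ratio is given against a level listed at 0. The table lists 236 genes at 0 in both NSC libraries and at 1 FPKM or more in each of the other 6. Hybrid cells were 4.10-fold below ESCs (log2 difference -2.33, SE 0.58, limma adjusted p = 0.00906), and the log2 difference was -3.33 without hybrid cell library 1 and -1.33 without hybrid cell library 2. The ratio of EPSCs to ESCs was 0.479 (-1.12, 95% interval -2.48 to 0.23, limma adjusted p = 0.130), although both EPSC libraries lay below both ESC libraries, and the log2 difference was -1.58 without EPSC library 1 and -0.67 without EPSC library 2. Without either hybrid cell library in the fit, which then gave a smaller shared spread, this difference passed, with limma adjusted p of 0.00979 without library 1 and 0.00902 without library 2. Hybrid cells against EPSCs gave -1.21 (95% interval -2.57 to 0.15, limma adjusted p = 0.130), and gave -2.21 without hybrid cell library 1 (limma adjusted p = 0.00403) and -0.21 without hybrid cell library 2 (0.636).

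In hybrid cells and in EPSCs, the libraries of one line differed more in Dnmt3l than in the other members. Library 1 exceeded library 2 4.17-fold in hybrid cells and 1.90-fold in EPSCs, whereas the ESC libraries were 1.01-fold apart. On the log2(FPKM + 1) scale, 16 of the 13239 tested genes differed more between the hybrid cell libraries, and 64 differed more between the EPSC libraries. In hybrid cells, Dnmt3a differed 1.61-fold, Tet2 1.40-fold, and Dnmt3b 1.27-fold, library 1 again being the higher, while Gadd45a differed 1.27-fold with library 2 the higher. Library 2 was the lower for 8 of the 10 genes in hybrid cells (median log2 difference -0.27), 7 of 10 in EPSCs (-0.06), and 4 of 10 in ESCs and in NSCs. Over all 13239 tested genes, library 2 was the lower for 6987 in hybrid cells (median -0.01) and 6972 in EPSCs (median -0.01). In ESCs it was the lower for 6956 of these genes (median -0.01), and in NSCs for 5114 (median 0.02). The same hybrid cell library 2 was lower for 8 of 10 pluripotent markers (median -0.17) and 10 of 10 fibroblast markers (median -0.36). EPSC library 2 was lower for 7 of 10 (median -0.10) and 6 of 10 (-0.12) of these lists. ESC library 2 was lower for 8 of 10 (-0.02) and 3 of 10 (0.04), and NSC library 2 for 2 of 10 and 3 of 10. The part of these markers in the Dnmt3l values was not tested. Fewer cells of a type and less RNA per cell cannot be told apart in such bulk RNA.

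**Figure D2:**
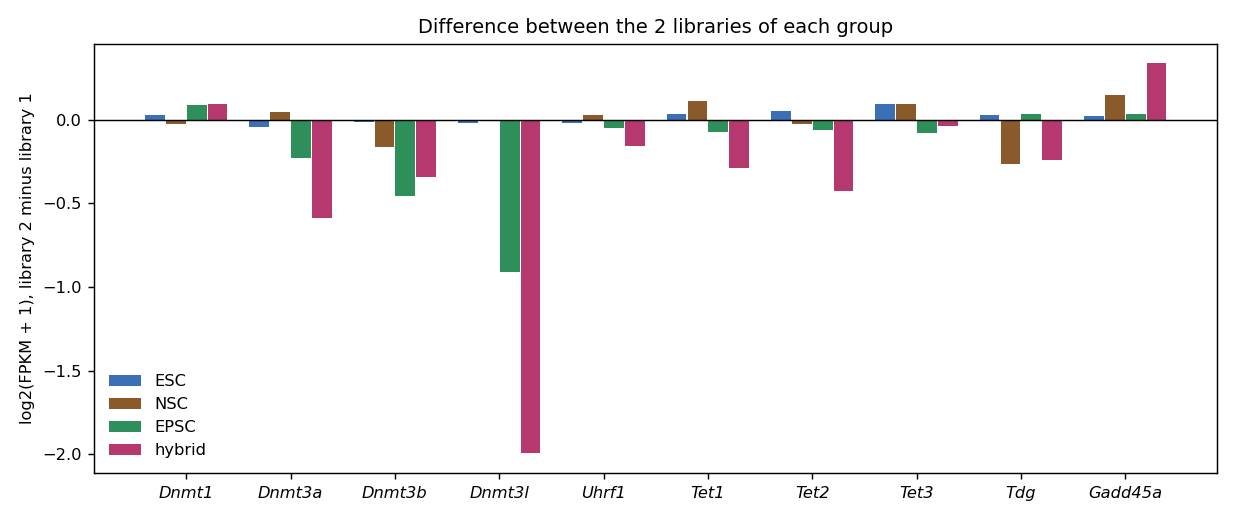
Difference between library 2 and library 1 of each group (vertical axis, log2(FPKM + 1)) for the 10 genes; bars are groups, and values below 0 mean a lower level in library 2. The longest bar is Dnmt3l in hybrid cells, at -1.996, followed by Dnmt3l in EPSCs, at -0.91.

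Compared with NSCs, Dnmt3a had lower means in the other groups, the opposite direction to Dnmt3b. It stood at 16.0 and 16.6 FPKM in NSCs, 13.3 and 11.2 in EPSCs, 10.9 and 10.5 in ESCs, and 7.10 and 4.40 in hybrid cells, and the 4 groups did not overlap. The hybrid cells were thus below both cell types that were fused. Their mean was 2.84-fold below NSCs (log2 difference -1.39, SE 0.18, limma adjusted p = 1.4e-04), 2.14-fold below EPSCs (-1.001, SE 0.18, limma adjusted p = 0.00389), and 1.86-fold below ESCs (-0.82, SE 0.18, limma adjusted p = 0.00458). EPSCs against NSCs (-0.39, 95% interval -0.80 to 0.03, limma adjusted p = 0.0719) and EPSCs against ESCs (0.18, -0.24 to 0.59, limma adjusted p = 0.412) did not pass. EPSCs against NSCs passed without either hybrid cell library in the fit (limma adjusted p = 0.00484 without library 1 and 0.00451 without library 2) and with only both these groups in the fit (0.00999). After scaling to a common sum it was -0.99 (limma adjusted p = 8.7e-04), beside the median of -0.48 over all genes. ESCs against NSCs passed at a limma adjusted p of 0.0177, and this call was lost when any one ESC or NSC library was left out, with limma adjusted p from 0.0634 to 0.0911.

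The make-up of the Dnmt3 family was taken within each library, where multiplying all genes by one factor does not change it. Dnmt3a made up 93.0% ± 1.1 (SD, n = 2) of the summed Dnmt3 FPKM in NSCs, and 4.52% to 7.34% as a mean in the other groups. Dnmt3l led in ESCs, at 76.5% ± 0.002, and Dnmt3b made up 18.9% there. In EPSCs, Dnmt3b stood at 41.3% and 47.6% and Dnmt3l at 52.5% and 44.0% of the sum. In hybrid cells, Dnmt3b led, with 53.9% and 77.0%, before Dnmt3l, with 41.9% and 18.3%. The ratio of Dnmt3l to Dnmt3b was 0.507 ± 0.382 (SD, n = 2) in hybrid cells, 1.10 ± 0.25 in EPSCs, and 4.05 ± 0.01 in ESCs, and the libraries of these groups did not overlap. The exact permutation p of the Dnmt3b share was 0.333 in hybrid cells against EPSCs, the smallest this design allows.

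**Figure D3:**
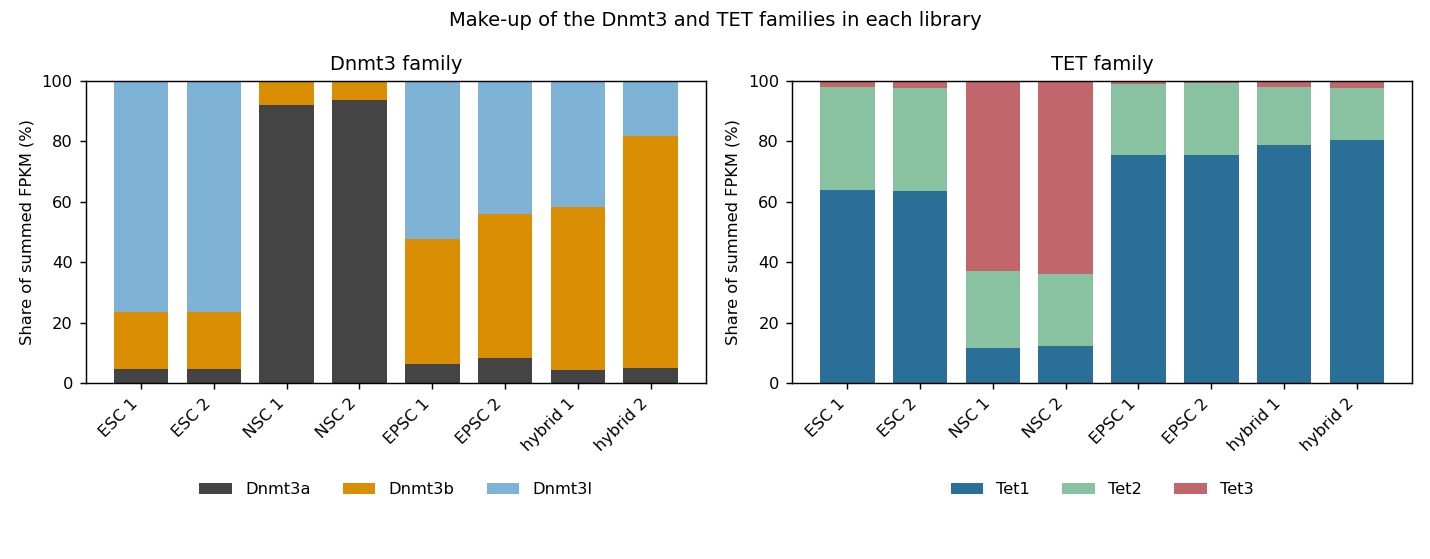
Share of each gene in the summed FPKM of its family (vertical axes, percent) in each of the 8 libraries, for the Dnmt3 family on the left and the TET family on the right. In NSCs, Dnmt3a and Tet3 take 93.0% and 63.4% as means, and in hybrid cells Dnmt3b and Tet1 lead with 65.4% and 79.7%.

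Dnmt3b and Dnmt3l rise together against NSCs. The 150 bases before an annotated start of each are shown, 5′ to 3′ on the gene's strand, with CpG in capitals. They are from RefSeq, build GRCm38.p6, where Dnmt3b lies at chr2:153649411-153687730 and Dnmt3l at chr10:78042287-78063622, both on the plus strand. For Dnmt3b the stretch is chr2:153649299-153649448, before the listed start, which lies within the annotated gene, and for Dnmt3l it is chr10:78042137-78042286, before the most upstream of 3 listed starts.
Dnmt3b: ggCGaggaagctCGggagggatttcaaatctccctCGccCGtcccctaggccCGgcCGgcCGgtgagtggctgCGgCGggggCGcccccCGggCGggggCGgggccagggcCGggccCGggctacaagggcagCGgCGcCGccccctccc
Dnmt3l: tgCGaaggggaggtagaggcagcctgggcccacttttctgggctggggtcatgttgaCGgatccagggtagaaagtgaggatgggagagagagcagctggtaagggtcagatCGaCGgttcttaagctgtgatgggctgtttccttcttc
The Dnmt3b stretch holds 18 CpG and the Dnmt3l stretch 4. In windows of 250 bases before to 50 bases after a start, Dnmt3b had 30 CpG and the 3 starts of Dnmt3l had 6, 4, and 3, beside a median of 7 and quartiles of 3 and 20 over 32851 windows. Of all windows, 11.7% held at least as many CpG as that of Dnmt3b and 56.4% at least as many as the richest of Dnmt3l. Those of Dnmt3a held 46, 47, and 18. This describes the sequence, and neither methylation nor the start in use was measured in these libraries.

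Among the TET enzymes, Tet1 and Tet3 changed places. Tet1 stood at 46.4 and 44.1 FPKM in EPSCs, 38.0 and 30.8 in hybrid cells, 27.3 and 28.1 in ESCs, and 3.26 and 3.61 in NSCs, and the 4 groups did not overlap. It was 10.01-fold higher in hybrid cells than in NSCs (log2 difference 2.99, SE 0.10, limma adjusted p = 7.7e-08), 13.2-fold higher in EPSCs, and 8.06-fold higher in ESCs. EPSCs exceeded ESCs 1.63-fold (0.69, SE 0.10, limma adjusted p = 8.1e-04). Hybrid cells lay 1.32-fold below EPSCs (-0.39, SE 0.10, limma adjusted p = 0.0164), a call that was lost without EPSC library 1 (limma adjusted p = 0.0719). They lay 1.24-fold above ESCs (limma adjusted p = 0.0319), a call that was lost without ESC library 1 (0.135), ESC library 2 (0.0990), NSC library 1 (0.0517), NSC library 2 (0.0514), or hybrid cell library 1 (0.133).

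Tet3 stood at 17.7 and 19.03 FPKM in NSCs, 0.912 and 1.04 in ESCs, 0.893 and 0.844 in hybrid cells, and 0.521 and 0.441 in EPSCs. The 4 groups did not overlap, and no library of the 3 pluripotent groups was above 1.04 FPKM. The hybrid cells were 21.2-fold below NSCs (log2 difference -3.37, SE 0.08, limma adjusted p = 1.7e-08), EPSCs 38.2-fold, and ESCs 18.8-fold. Tet3 passed the filter on low values only through NSCs, since its means in hybrid cells, EPSCs, and ESCs were under 1 FPKM. In fits of only the groups compared it had no value between these groups, and no conclusion is drawn from its calls there. At these low levels, hybrid cells were 1.80-fold above EPSCs (0.34, SE 0.08, limma adjusted p = 0.0134). That call was lost without EPSC library 2, where the log2 difference was 0.30. EPSCs were 2.03-fold below ESCs (-0.42, SE 0.08, limma adjusted p = 0.00329). Hybrid cells against ESCs gave -0.08 (95% interval -0.27 to 0.11, limma adjusted p = 0.414), and -0.23 with quantile normalization, which passed (limma adjusted p = 0.0477).

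Tet2 stood at 14.5 and 15.1 FPKM in ESCs, 14.5 and 13.8 in EPSCs, 9.27 and 6.64 in hybrid cells, and 7.25 and 7.12 in NSCs. The hybrid cell libraries lay on both sides of the NSC libraries and below all ESC and EPSC libraries. Tet2 was 1.78-fold lower in hybrid cells than in EPSCs (log2 difference -0.78, SE 0.13, limma adjusted p = 0.00317) and 1.97-fold higher in EPSCs than in NSCs (0.89, SE 0.13, limma adjusted p = 3.2e-04). EPSCs against ESCs gave -0.06 (95% interval -0.36 to 0.24, limma adjusted p = 0.712). Hybrid cells against NSCs gave 0.11 (95% interval -0.19 to 0.42, limma adjusted p = 0.430). The direction of that last comparison changed with the scaling, from 0.44 with quantile normalization (limma adjusted p = 0.0134) to -0.46 with a common sum (limma adjusted p = 0.0110), and it was 0.33 without hybrid cell library 2 (limma adjusted p = 0.00487) and -0.10 without hybrid cell library 1 (0.233). EPSCs against NSCs gave 0.35 after scaling to a common sum.

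Tet1 made up 11.8% ± 0.4 (SD, n = 2) of the summed TET FPKM in NSCs and 63.7% ± 0.3 in ESCs, but 79.7% ± 1.1 in hybrid cells and 75.6% ± 0.02 in EPSCs. Tet3 made up 63.4% ± 0.8 in NSCs, 2.24% in ESCs, 2.03% in hybrid cells, and 0.802% in EPSCs. The ratio of Tet1 to Tet2 was highest in hybrid cells, at 4.37 ± 0.39, then 3.20 ± 0.01 for EPSCs, 1.87 ± 0.02 for ESCs, and 0.478 ± 0.040 for NSCs, with no overlap between groups. The sum of the 3 genes was 59.9 ± 2.1 FPKM in EPSCs, 43.5 ± 1.0 in ESCs, 43.2 ± 6.9 in hybrid cells, and 29.0 ± 1.1 in NSCs, and the hybrid cell libraries lay on both sides of the ESC libraries. The exact permutation p of the Tet1 share was 0.333 in hybrid cells against NSCs, the smallest this design allows.

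The 150 bases before the starts of the 2 TET genes that moved in opposite directions are shown in the same way, from RefSeq GRCm38.p6, both on the minus strand. Tet1 lies at chr10:62804570-62887469 and its stretch at chr10:62887325-62887474, before a listed start that lies within the annotated gene, as for Dnmt3b; Tet3 lies at chr6:83362373-83457208 and its stretch, likewise before a start within the gene, at chr6:83441679-83441828.
Tet1: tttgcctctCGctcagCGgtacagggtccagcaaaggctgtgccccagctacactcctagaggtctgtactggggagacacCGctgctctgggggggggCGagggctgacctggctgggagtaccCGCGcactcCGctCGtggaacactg
Tet3: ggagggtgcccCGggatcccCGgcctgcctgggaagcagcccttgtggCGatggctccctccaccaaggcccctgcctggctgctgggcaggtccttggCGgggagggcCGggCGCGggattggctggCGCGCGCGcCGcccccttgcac
They hold 8 and 12 CpG. In the longer windows Tet1 had 17 CpG, Tet3 22, and Tet2 57, and 0.152% of all windows held at least as many as that of Tet2.

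Tdg, the glycosylase that follows the TET enzymes, was highest in NSCs, at 19.3 and 15.9 FPKM. It stood at 14.6 and 15.0 in EPSCs, 10.2 and 8.50 in hybrid cells, and 6.40 and 6.56 in ESCs, and the 4 groups did not overlap. EPSCs were 2.29-fold above ESCs (log2 difference 1.08, SE 0.11, limma adjusted p = 1.8e-04). Hybrid cells lay 1.58-fold below EPSCs (-0.62, SE 0.11, limma adjusted p = 0.00447), 1.88-fold below NSCs (-0.84, SE 0.11, limma adjusted p = 1.9e-04), and 1.44-fold above ESCs (limma adjusted p = 0.00794). EPSCs against NSCs gave -0.23 (95% interval -0.49 to 0.03, limma adjusted p = 0.0894), and without NSC library 2 gave -0.36 (limma adjusted p = 0.0335). After scaling to a common sum it was -0.83 (limma adjusted p = 2.5e-04), beside the median of -0.48 over all genes, and hybrid cells against NSCs gave -1.47 beside -0.51. The RefSeq annotation holds pseudogene copies of Tdg, and reads shared with them may have been split or dropped, so its level is less certain.

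Gadd45a in hybrid cells lay between the levels of both fused cell types. It stood at 55.8 and 57.3 FPKM in EPSCs, 48.9 and 49.6 in ESCs, 23.9 and 30.5 in hybrid cells, and 12.48 and 13.95 in NSCs, with no overlap between groups. The hybrid cells were 2.06-fold above NSCs (log2 difference 0.98, SE 0.11, limma adjusted p = 6.2e-05), 2.08-fold below EPSCs (-1.04, SE 0.11, limma adjusted p = 5.6e-04), and 1.81-fold below ESCs (-0.84, SE 0.11, limma adjusted p = 3.8e-04). EPSCs against ESCs gave 0.20 (95% interval -0.06 to 0.45, limma adjusted p = 0.155), and passed without either hybrid cell library (limma adjusted p = 0.0311 without library 1 and 0.0309 without library 2) and with only both these groups in the fit (0.0186). Hybrid cells against NSCs gave 0.40 after scaling to a common sum.

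A stretch of 60 bases before the Gadd45a start is shown because it holds the octamer ATGCAAAT, an element known to be bound by POU-domain factors such as OCT4, once on each strand. It lies at chr6:67037458-67037517 on the minus strand of GRCm38.p6 (RefSeq), 110 to 51 bases before the start, and capitals mark the octamers, at 97 and 70 bases before the start.
Gadd45a: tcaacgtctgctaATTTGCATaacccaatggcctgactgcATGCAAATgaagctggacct
Of all 32851 windows, 1.74% held this octamer on either strand and 0.107% held 2 or more, and the windows of the other 9 members held none. The GC box GGGCGG, present on either strand in 35.7% of windows, was in at least 1 window of each member but Tdg, and the E-box CACGTG, which reads the same on both strands, in 7.15%, was in a window of Dnmt3a, Dnmt3l, and Tdg. The motifs were picked after the sequences had been read, they are a description of the letters, and binding was not measured here.

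For the 6 members that differed over 2-fold between EPSCs and NSCs, the hybrid cell level was placed on a scale from 0 at the NSC mean to 1 at the EPSC mean of log2(FPKM + 1). Dnmt3b lay at 1.02 ± 0.05 (SD, n = 2), Uhrf1 at 0.962 ± 0.106, Tet3 at 0.910 ± 0.007, and Tet1 at 0.884 ± 0.061. Dnmt3l lay at 0.810 ± 0.222, from 0.967 and 0.653, and Gadd45a at 0.486 ± 0.118, from 0.402 and 0.570. Of these, only Gadd45a lay nearer to 0.5 than to 1 in both libraries, and its position was 0.276 after scaling to a common sum. Tet2, 1.97-fold higher in EPSCs than in NSCs, fell just short of the 2-fold rule and was not placed. Its hybrid cell libraries lay on both sides of the NSC libraries, as did those of Dnmt1, which was not placed either.

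Counted over the 10 members, most were called against NSCs, as were most of all genes. In hybrid cells against NSCs, 5 members were higher, 3 lower, and 2 did not pass, while 44.5% of all tested genes were higher and 42.0% lower by limma. EPSCs against NSCs gave 6 higher and 2 lower, beside 45.2% and 41.0%, and ESCs against NSCs gave 6 higher and 4 lower, beside 42.8% and 41.9%. After scaling to a common sum these counts were 5 higher and 5 lower, 6 and 4, and 5 and 4. Over all 13239 genes, that scaling gave 11638, 11578, and 11385 calls in either direction. The medians over all genes were then -0.51, -0.48, and -0.47. By the fold rule of the study's methods, a mean over 3 FPKM and a ratio over 3, the members past it were 4 (Dnmt3b, Dnmt3l, Tet1, and Tet3), 5, and 5 in these comparisons, the fifth being Gadd45a, beside 34.6%, 34.4%, and 33.0% of genes. In hybrid cells against EPSCs, 2 members were higher (Dnmt1 and Tet3) and 5 lower (Dnmt3a, Tet1, Tet2, Tdg, and Gadd45a), beside 22.5% and 21.9% of all tested genes. Of these, Tet3 was under 1 FPKM in both groups. The members past the fold rule were 0, beside 2.18% of genes. The median log2 difference of the members in that comparison was -0.50, beside 0 over all genes. EPSCs against ESCs gave 4 higher (Dnmt3b, Uhrf1, Tet1, and Tdg) and 1 lower (Tet3), beside 33.7% and 27.3%, with 0 past the fold rule, beside 6.34%. Tet3 passed the filter only through NSCs, with means under 1 FPKM in the other groups. No conclusion is drawn from its calls between those groups. Hybrid cells against ESCs gave 5 higher and 4 lower, beside 35.3% and 30.2%, and 1 (Dnmt3l) past the fold rule, beside 8.83%. The hybrid cell and EPSC libraries also differed in the fibroblast markers given above, of which 10 of 10 were higher in hybrid cells, and their part in the members' differences was not tested.

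**Figure D4:**
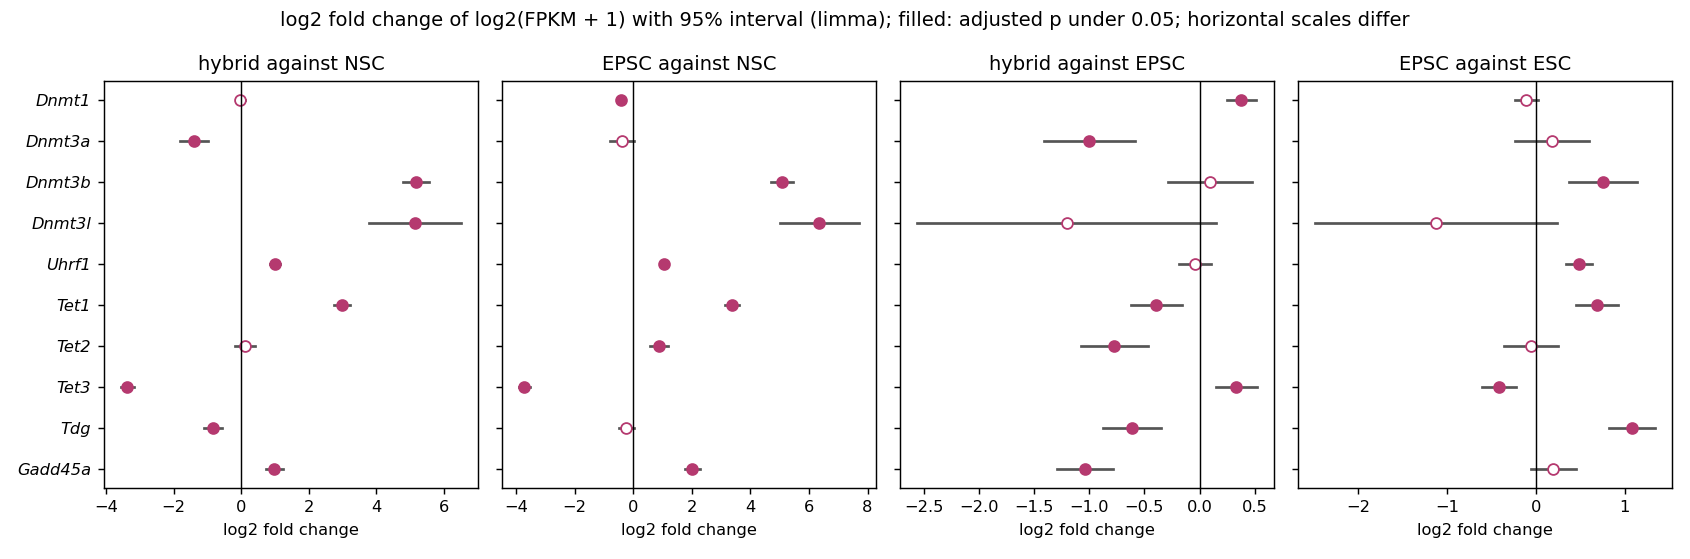
Difference in log2(FPKM + 1) (horizontal axes, scales differ between panels) of the 10 genes in 4 comparisons, with 95% intervals from limma; filled points passed an adjusted p of 0.05. Against EPSCs, the hybrid cells show 5 filled points below 0 and 2 above (Dnmt1 and Tet3, the latter under 1 FPKM in both groups). The widest interval in each panel is that of Dnmt3l.

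Other genes of the pathway were counted by list. Of 17 genes that target or control methylation, 11 were higher and 6 lower in hybrid cells than in NSCs by limma, with a median log2 difference of 0.90, beside 44.5% and 42.0% of all tested genes. The median over all genes was 0.06. After scaling to a common sum the counts were 9 and 6, with a median of 0.31 beside -0.51 over all genes. Dppa3, a factor that binds UHRF1 and restrains methylation, was listed at 0 in NSCs and stood at a mean of 72.9 FPKM in hybrid cells. Zfp57, which binds methylated imprinting control regions, was 45.8-fold higher (limma adjusted p = 6.3e-10), and Prdm14, a regulator of pluripotent and germ cells, stood at 5.21 FPKM beside 0.0146. In hybrid cells against EPSCs, 5 of the 17 were higher, 2 lower, and 10 did not pass, with a median of 0.01, beside 22.5% and 21.9% of all tested genes. In EPSCs against ESCs, 7 were higher and 6 lower, beside 33.7% and 27.3%, led by Dppa3 (2.43-fold higher), the histone H3 lysine 36 methyltransferase Nsd2 (2.31-fold higher, listed as Whsc1), and Cdca7, a partner of the remodeler HELLS (1.76-fold higher), with limma adjusted p of 1.1e-04, 2.4e-05, and 8.2e-04.

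Genes of the families of methyl-CpG readers moved against NSCs in the other direction. Of 9 genes, 7 were lower and 2 higher in hybrid cells than in NSCs, beside 42.0% and 44.5% of all tested genes. The median log2 difference was -0.80 beside 0.06 over all genes. Against the same NSC libraries, 7 were lower and 2 higher in EPSCs, beside 41.0% and 45.2% of all tested genes. In ESCs, 7 were lower and 1 higher, beside 41.9% and 42.8%. The counts in hybrid cells against NSCs were 2 higher and 7 lower under both other scalings as well. Against EPSCs, 4 were higher in hybrid cells, 2 lower, and 3 did not pass, beside 22.5% and 21.9% of all tested genes. Zbtb33, which encodes the reader Kaiso, was 3.52-fold lower and Mbd2 2.96-fold lower in hybrid cells, with limma adjusted p of 5.6e-06 and 1.2e-05. In EPSCs against ESCs, 2 were higher, 1 lower, and 6 did not pass, beside 33.7% higher and 27.3% lower over all tested genes. Zbtb38 was 2.15-fold higher and Mbd3 1.28-fold lower, with limma adjusted p of 2.1e-04 and 4.3e-04, and Mbd1 had a ratio of 1.21 (limma adjusted p = 0.0668).

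Base excision repair, which acts after TDG, held 12 genes. Of these, 7 were higher and 3 lower in hybrid cells than in NSCs, beside 44.5% and 42.0% of all tested genes. The median log2 difference was 0.47, beside 0.06 over all genes. After scaling to a common sum the counts were 5 higher and 6 lower, with a median of -0.13 beside -0.51 over all genes. The glycosylase Neil3 was 8.80-fold lower, the uracil glycosylase Ung 4.10-fold higher, and Parp1, a sensor of strand breaks, 3.65-fold higher, with limma adjusted p of 3.8e-07, 1.6e-07, and 2.5e-08. In EPSCs against ESCs, 5 were higher and 3 lower, beside 33.7% and 27.3%, with Neil3 2.03-fold lower, Neil2 1.77-fold lower, and the gap-filling polymerase gene Polb 1.48-fold higher. In hybrid cells against EPSCs, 1 was higher, 2 were lower, and 9 did not pass, beside 22.5% and 21.9%.

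Of the TET partners and the Gadd45 paralogs, 7 of 8 were tested, and 3 were higher and 4 lower in hybrid cells than in NSCs, beside 44.5% and 42.0% of all tested genes. The median log2 difference was -0.32, beside 0.06 over all genes. After scaling to a common sum the counts were 2 and 5, with a median of -0.94 beside -0.51 over all genes. The 3 Gadd45 genes did not all move in the same direction there: Gadd45b, like Gadd45a, was higher (6.38-fold, limma adjusted p = 9.3e-08), and Gadd45g was lower (12.2-fold, limma adjusted p = 4.7e-06). Gadd45g fell from a mean of 47.2 FPKM in NSCs to 3.86 in hybrid cells. Cxxc5, which encodes a CXXC-domain protein that binds CpG and interacts with TET2, was 2.32-fold lower (limma adjusted p = 2.2e-06). Against EPSCs, 1 of the 7 was higher in hybrid cells and 3 lower, beside 22.5% and 21.9%, and Gadd45b was 2.45-fold lower (limma adjusted p = 1.1e-04). In EPSCs against ESCs, 4 were higher and 1 lower, beside 33.7% and 27.3%. There Gadd45b was 2.26-fold and Gadd45g 2.55-fold higher, and Idh2, whose enzyme makes the TET co-substrate 2-oxoglutarate, was 1.59-fold lower, with limma adjusted p of 3.5e-05, 0.00966, and 0.00162.

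For the 5 members whose highest and lowest group means differed over 3-fold, the tested genes with the nearest profile were found by the Euclidean distance of centred log2(FPKM + 1) over the 8 libraries, which share their groups, so the likeness is a description. Nearest to Dnmt3l were Ifitm1 (distance 0.872, r = 0.994), Apela (1.52), and Tcl1 (1.65). Ifitm1 stood at 88.3 and 55.0 FPKM in EPSCs and 57.6 and 28.8 in hybrid cells, so its libraries stood apart in the same order as those of Dnmt3l. Nearest to Dnmt3b were Slc35f2 (0.418), Gpc3 (0.484), and Laptm5 (0.508), and nearest to Tet1 were Rps6ka6 (0.356), Eif1a (0.356), and Zfp345 (0.375). Tet3 was nearest to Megf6 (0.296), Ntrk3 (0.308), and Kif3c (0.309). Gadd45a was nearest to Srf (0.275), at means of 42.2 FPKM in EPSCs, 21.7 in hybrid cells, and 10.3 in NSCs, and then to Hrk (0.332) and Pycr1 (0.353).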

How the data were processed

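Poly-A RNA of 8 libraries, 2 per group, was prepared by the authors with a stranded TruSeq kit, trimmed, aligned to mm10 with STAR 2.7.9a, and quantified with Cuffnorm of Cufflinks 2.2.1, per the paper's methods and the submitters' processing notes. The authors deposited FPKM per gene and library, without pooling replicates. The gene annotation, the strand setting of the counting, and the library normalization are not given in the sources used here, so overlapping and antisense genes could share reads, and isoforms are not separated. The column names gave each column's sample, and 0 columns were of samples outside the series. No counts were used. The depth was derived from the steps of low values of 2247 genes with a transcript over 1500 bases, with an assumed fragment length of 200 bases, and more depth means less counting error.

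From FPKM, log2(FPKM + 1) of the 13239 genes with a group mean of at least 1 FPKM in 1 or more groups was tested with limma 3.58.1 (R 4.3.3; lmFit, contrasts, eBayes with trend; 4 residual and 3.25 prior degrees of freedom), two-sided, for 6 comparisons, with Benjamini-Hochberg adjustment within each over all genes. The fold rule of the study's methods (mean over 3 FPKM and ratio over 3) was applied beside it, and the thresholds of 2 that its results also name were an alternative. Family shares were compared by exact permutation tests. Other steps used Python 3.11.15, numpy 2.4.6, pandas 2.3.3, and scipy 1.17.1. The limma fit was tested on simulated data made for hybrid cells against EPSCs with 13239 genes. It called 94 of 100 genes changed by a log2 value of 1, 99 of 100 changed by 2, and 13 unchanged genes. The changed genes had an EPSC mean log2(FPKM + 1) over 2. All groups started from the EPSC profile, with independent noise in each library. These rates therefore do not carry over to low genes or to shifts of a whole library.

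The members and the lists were chosen with earlier results of these data known. The text names all members, and of each other list the 3 genes with the largest absolute log2 difference in hybrid cells against NSCs and in EPSCs against ESCs, as well as the 3 nearest genes of each member that varied over 3-fold, except 1 gene of the lists that is not reported here. Promoter windows came from RefSeq (GRCm38.p6), where all 10 members matched. The alternatives were a pseudocount of 0.1, quantile normalization, a common sum of 1000000, no filter on low values, only the 2 groups compared, the replicate block, thresholds of 2, and each library left out in turn.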

Additional observations from a re-analysis of the deposited data

How the results depend on the processing

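The count of members called by limma stayed within 1.5 times its value under all 84 alternatives. Of 837 values of single members under an alternative, 801 kept their side of the threshold (5 of them, none past it in either setting, with another sign), 16 lost a call, 19 gained one, and 1 changed direction while gaining one, which was Tet2 in hybrid cells against NSCs with scaling to a common sum (log2 difference -0.46). The cause was not tested. The share of all genes past thresholds of 2 was not counted, so the member counts at that setting have no share to be read beside. With thresholds of 2, the members past the fold rule were 7 in hybrid cells against NSCs, 2 in hybrid cells against EPSCs, and 2 in EPSCs against ESCs. With each library left out in turn they were 0 to 1 in hybrid cells against EPSCs (1, Dnmt3l, without hybrid cell library 1), 0 to 1 in EPSCs against ESCs (1, Dnmt3l, without EPSC library 1), and 0 to 1 in hybrid cells against ESCs (0 without hybrid cell library 2). The position between NSCs and EPSCs was 0.852 for Tet3 with a pseudocount of 0.1 and 0.276 for Gadd45a with a common sum. With each library left out it ranged from 0.9748 to 1.067 for Dnmt3b, 0.653 to 0.967 for Dnmt3l, 0.887 to 1.037 for Uhrf1, 0.841 to 0.927 for Tet1, 0.9002 to 0.919 for Tet3, and 0.402 to 0.570 for Gadd45a.

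Replicate numbers are shared between groups, but nothing in the labels pairs the libraries, and the correlation of same-numbered deviations was 0.28 between EPSCs and hybrid cells and -0.11 to 0.07 between other groups. With a replicate block, limma called 8, 9, 10, 7, 5, and 9 members in hybrid cells, EPSCs, and ESCs against NSCs, hybrid cells against EPSCs, EPSCs against ESCs, and hybrid cells against ESCs. In the same order, it called 11511, 11441, 11265, 6060, 8250, and 8757 of all 13239 tested genes. The one member call that differed from the fit without the block was Dnmt3a in EPSCs against NSCs, with a limma adjusted p of 0.0415. In fits of only the groups compared, Tet1 lost its call in hybrid cells against EPSCs (limma adjusted p = 0.0533), as did Tet1 in hybrid cells against ESCs (0.0593, also 0.0516 with no filter and 0.0738 with a common sum), Dnmt3l and Gadd45a gained one in EPSCs against ESCs (0.0178 and 0.0186), Dnmt3a gained one in EPSCs against NSCs (0.00999), and Tet3 had no value where both means were under 1 FPKM. Counting error weighs more on values near 1 FPKM, as of Tet3 in pluripotent cells and Dnmt3b in NSCs, and leaving out 1 of 2 libraries assumes that the lone one varies like the other groups.

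For the calls that changed, the limma adjusted p over all alternatives ranged as follows. Dnmt3l ranged from 0.00403 to 0.636 in hybrid cells against EPSCs and from 0.00902 to 0.449 in EPSCs against ESCs. Against NSCs, Dnmt3a had a lowest value of 8.7e-04 and a highest of 0.275 for EPSCs, and 5.6e-05 and 0.0911 for ESCs. Tet1 ranged from 0.00365 to 0.0719 in hybrid cells against EPSCs and from 0.00268 to 0.135 against ESCs, and Tet3 from 0.00545 to 0.0531 against EPSCs and from 0.0477 to 0.815 against ESCs. In hybrid cells against NSCs, Dnmt1 ranged from 4.8e-05 to 0.886 and Tet2 from 0.00487 to 0.614. Uhrf1 ranged from 1.7e-05 to 0.798 in ESCs against NSCs, Tdg from 2.5e-04 to 0.490 in EPSCs against NSCs, and Gadd45a from 0.0186 to 0.378 in EPSCs against ESCs.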
